A study of Mus musculus with 12 samples.

Results

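The genes described here build and run the mitotic spindle: 47 genes for chromosomal passenger and mitotic kinases, the spindle assembly checkpoint, the centromere and kinetochore, mitotic kinesins, spindle assembly, cytokinesis, anaphase, and condensin with topoisomerase II alpha. They were listed by their known role in cell division, with earlier results of these data known. Each was read by 1 Affymetrix probe set, the one naming that gene alone with the highest mean over 12 arrays. All 47 were measured, out of 18193 genes with such a probe set.

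The arrays (Affymetrix GeneChip) carried RNA of endothelial cells (ECs) from whole lungs of female NSG mice, an immunodeficient strain, in 4 groups of 3 biological replicates. One group came from lungs of healthy, age-matched mice. The others came from lungs harboring MDA-MB-231-LM2 metastases (MDA-LM2, a lung-metastatic derivative of the human breast cancer line MDA-MB-231), harvested 1, 2 or 3 weeks after intravenous injection of the cells at 6 to 8 weeks of age. ECs were sorted as CD31+ cells lacking CD45, CD11b, EpCAM, CD140a, CD140b and the GFP that marked the cancer cells. The lungs were taken whole, so that ECs near and far from metastases were mixed, and a single cancer cell line was used. Values are log2 signals, in which a difference of 1 is a doubling. A gene was called changed at an adjusted p below 0.05 (limma, 3 against 3 arrays, adjusted over all probe sets tested).

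When a cell divides, the kinetochore is built on centromeric chromatin and binds spindle microtubules, while the checkpoint holds back the anaphase-promoting complex (APC/C) until every kinetochore is attached. Condensin and topoisomerase II compact and untangle the chromosomes, kinesins move and sort microtubules, and after the APC/C has released the sister chromatids a contractile ring divides the cell. Most of these genes are transcribed in G2 and mitosis, whereas adult lung endothelium is largely quiescent, so that in sorted tissue their signal follows both the share of dividing cells and the RNA in each, which cannot be told apart in bulk RNA.

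The promoters of such genes are known for 2 letter runs: the cell cycle homology region (CHR), searched here as TTTGAA with its variants TTCGAA and, more loosely, TTTAAA, and the box bound by NF-Y, searched as CCAAT, both searched on either strand in the 250 bases before a RefSeq start (build GRCm38.p6). The promoter table held 41 of the 47 members, all except Aurkb, Incenp, Spc24, Kif20a, Tpx2 and Smc4. A CHR run lay before 20 of the 41 (48.8%), against 24.2% of the 14452 genes on the array with a promoter. CCAAT lay before 28 of the 41 (68.3%), against 39.4%. Both lay before 17 of the 41 (41.5%), against 9.11%. The 150 bases before the start are shown for 5 members that hold both, with these runs in capitals: Top2a, Ube2c, Prc1 and Kif11, which had large differences at week 3, and Bub3, whose groups overlapped.
Top2a, chr11:99024190-99024339, minus strand: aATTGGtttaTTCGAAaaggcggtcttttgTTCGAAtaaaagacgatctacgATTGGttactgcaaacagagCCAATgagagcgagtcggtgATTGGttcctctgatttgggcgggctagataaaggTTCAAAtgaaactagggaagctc
Ube2c, chr2:164769779-164769928, plus strand: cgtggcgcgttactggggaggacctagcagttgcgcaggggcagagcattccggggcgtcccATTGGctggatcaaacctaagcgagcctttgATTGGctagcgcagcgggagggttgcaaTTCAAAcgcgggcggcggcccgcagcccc
Prc1, chr7:80294326-80294475, plus strand: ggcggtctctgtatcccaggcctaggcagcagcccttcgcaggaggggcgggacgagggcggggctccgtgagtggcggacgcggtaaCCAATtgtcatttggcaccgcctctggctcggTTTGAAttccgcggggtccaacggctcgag
Kif11, chr19:37376232-37376381, plus strand: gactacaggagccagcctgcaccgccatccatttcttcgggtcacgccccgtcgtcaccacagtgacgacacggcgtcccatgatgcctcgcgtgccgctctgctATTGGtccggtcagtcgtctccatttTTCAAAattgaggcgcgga
Bub3, chr7:131560220-131560369, plus strand: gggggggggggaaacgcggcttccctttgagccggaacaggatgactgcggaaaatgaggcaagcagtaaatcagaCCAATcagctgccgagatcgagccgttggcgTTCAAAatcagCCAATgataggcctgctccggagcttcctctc
Top2a carries 3 CHR runs and 4 CCAAT boxes in this stretch, and Bub3 1 and 2. The letters did not sort the members by the size of their week 3 difference. For members with both runs the week 3 minus healthy differences had a median of 1.20 (9 of 17 called), and for the 24 without both it was 1.45 (12 called). These matches are a description of letters and not of binding.

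At week 3 the set was high as a whole. Of the 47 genes, 26 were called higher than in healthy ECs and none lower, with 21 below the threshold, where 2.38% of all 18193 genes were called higher. The median log2 fold change of the members was 1.28, against 0.03 for all genes, and all 47 values lay above 0. For 43 members the 3 week 3 arrays all lay above the 3 healthy arrays, which held for 17.2% of all genes. Among the 26 called members the rises ran from 0.82 for Aurka to 2.39 for Aurkb. Over all 47 members the lowest value was 0.03, that of Bub3. Fewer members were called with one array less: 3 without healthy replicate 2, 6 without healthy replicate 3, 9 without week 3 replicate 3 and 14 without week 3 replicate 1, although the median kept between 1.02 and 1.40.

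**Figure D1:**
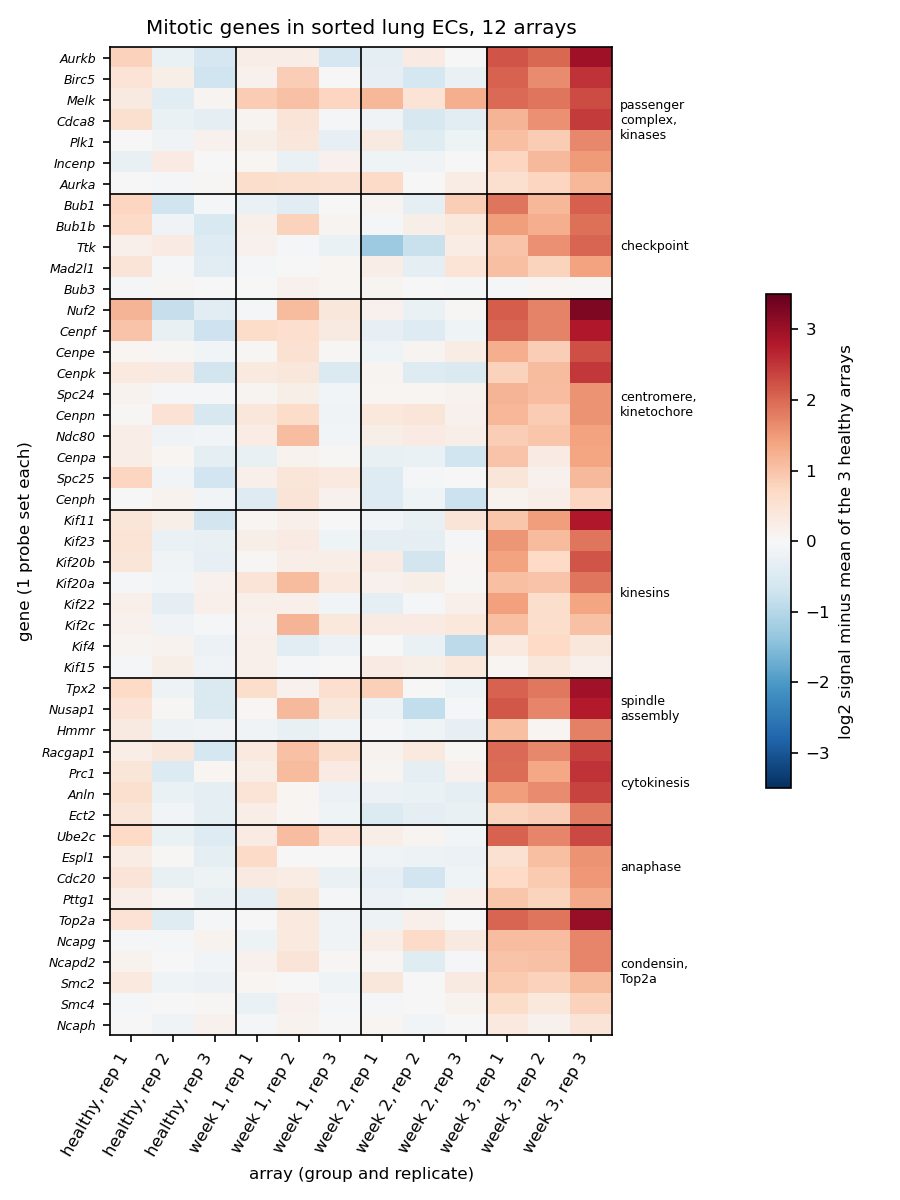
Log2 signal of the 47 genes (rows, grouped by role) on the 12 arrays (columns, by group and replicate), each minus the gene's mean over the 3 healthy arrays; red is above and blue below that mean. The week 3 columns are red in nearly every row, replicate 3 most of all, while Bub3 and Kif15 stay pale.

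The rise was late. At week 2 the set stood near its healthy level, the members' median difference from it being -0.02. No member was called by limma, against 0.104% of all genes called higher. At an unadjusted p below 0.05, 3 members were higher and 1 lower, against 958 and 945 of the 18193 genes. At week 1 the median was 0.11 and no member was called, against 0.011% of all genes called higher. Unadjusted, 3 members were higher and none lower, against 679 and 954 genes. The difference from healthy was positive for 37 members at week 1, against 11070 of the 18193 genes. At week 2 it was positive for 20 members, against 10561 genes. Between week 2 and week 1 the median was -0.25 and again no member was called, against 0% of all genes. Here 10 members were lower and none higher at an unadjusted p below 0.05, against 559 and 633 genes. None was called in these 3 comparisons under any other fit or scaling that was run. Of the group means, the lowest was that of week 2 for 25 members, of healthy ECs for 16 and of week 1 for 6. Among all genes these shares were 18.4%, 34.3% and 16.8%, so the healthy count was near its share. The highest mean was that of week 3 for 45 members, against 30.3% of all genes. The 2 members not highest at week 3 were Bub3, highest at week 1, and Kif15, highest at week 2.

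Week 3 also stood above week 2 and week 1. Against week 2, 20 members rose and none fell (1.35% of all genes were called higher), with a median of 1.29. Against week 1, 10 rose and none fell (0.649% of all genes), with a median of 1.13. The comparisons of week 3 share the same 3 week 3 arrays, and those against healthy the same 3 healthy arrays, so they are not independent of each other. The call counts again hung on single arrays. Against week 2, no member was called without week 2 replicate 1 or week 2 replicate 3, 3 without week 2 replicate 2 or week 3 replicate 1, and 11 without week 3 replicate 3. Against week 1, leaving out any 1 of the 6 arrays (week 1 or week 3 replicates 1, 2 and 3) left 0 or 1.

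**Figure D2:**
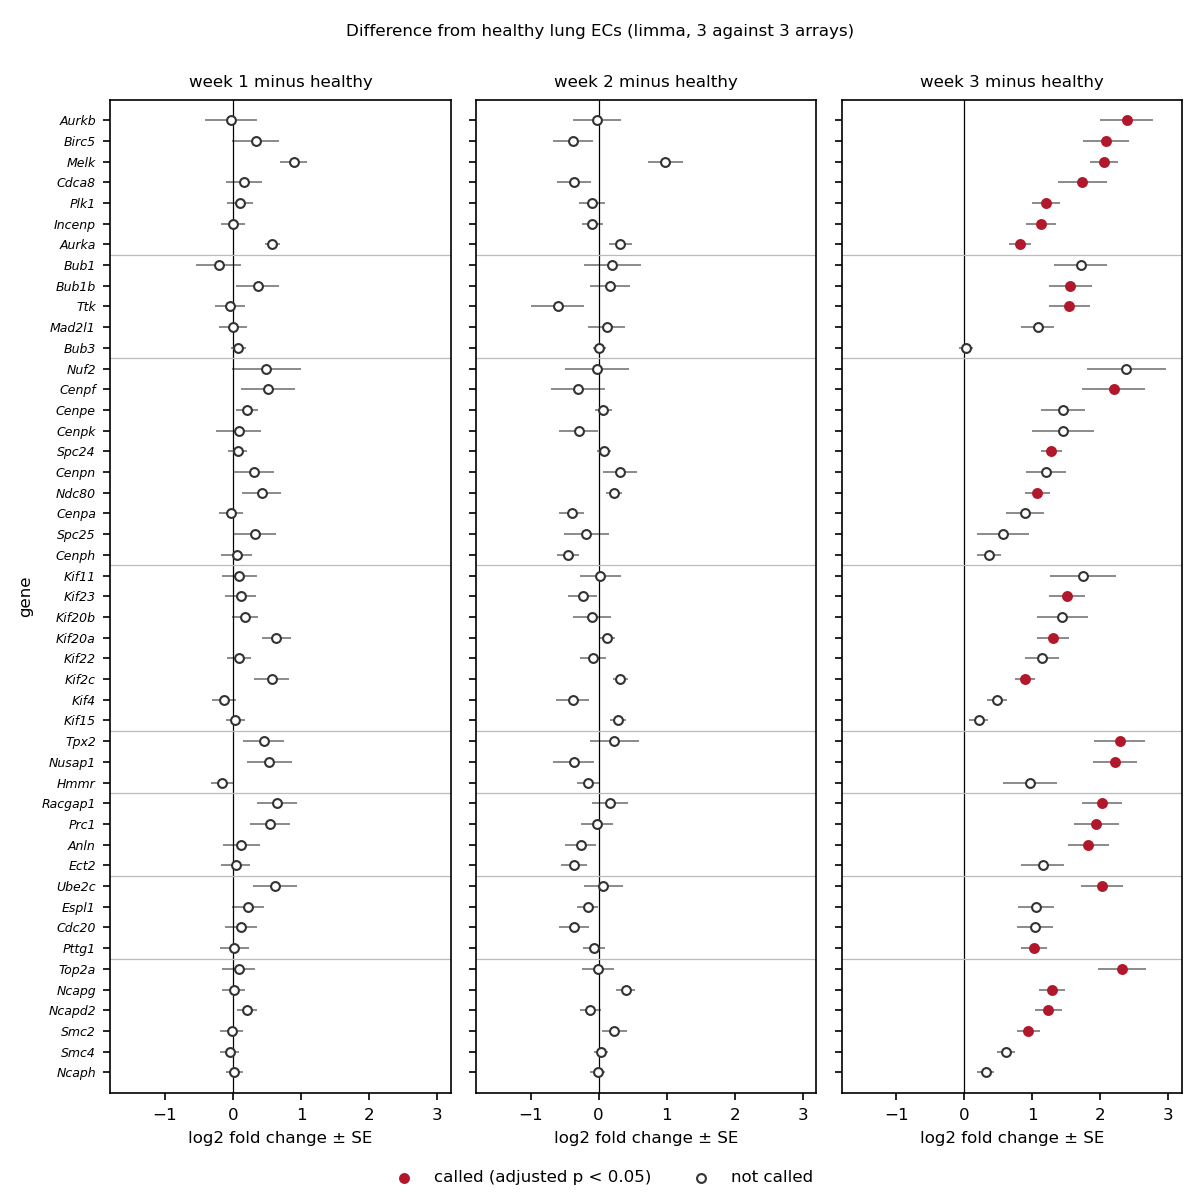
Log2 fold change with its standard error for each gene (rows, grouped by role) in the 3 metastasis groups, 1 panel each, against healthy ECs, 3 arrays against 3; filled points were called at an adjusted p below 0.05. All 26 filled points lie in the week 3 panel, and Melk stands to the right in all panels.

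The chromosomal passenger complex, the Aurora B kinase with the subunits that place it on centromeres and later on the spindle midzone, rose in full at week 3. All 7 genes of this group and its companion kinases passed against healthy, with a median of 1.74, and 4 passed against week 2. The median was 1.12 over the 6 genes left without the probe sets that may bind related transcripts (suffixes x and s). Aurkb, the kinase itself, measured 8.18, 7.12 and 6.79 in the healthy arrays, 7.61, 7.61 and 6.79 at week 1, 7.04, 7.65 and 7.35 at week 2 and 9.56, 9.36 and 10.33 at week 3. Every week 3 array lay more than 1 log2 unit above each of the other 9. Its log2 fold change was 2.39 (SE 0.39, adjusted p = 0.0226) against healthy and 2.41 (SE 0.27, adjusted p = 0.0193) against week 2, the largest of the set against healthy. Birc5, survivin, which joins the complex to phosphorylated histone H3, measured 8.43, 8.15 and 7.24 in the healthy arrays, 8.09, 8.80 and 7.94 at week 1, 7.67, 7.33 and 7.70 at week 2 and 10.01, 9.59 and 10.48 at week 3. It rose by 2.09 (SE 0.34, adjusted p = 0.0224), and here too no week 3 array overlapped another group. The scaffold Incenp and the targeting subunit Cdca8 (borealin) rose by 1.12 and 1.74, and Plk1, the polo kinase of mitotic entry, by 1.20.

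For Aurora A and Melk, as for Kif2c and Kif20a, the 3 week 1 arrays lay above the 3 healthy arrays. That held for 4 of the 47 members and for 1676 of all 18193 genes, a similar share. Aurka, the centrosomal Aurora kinase, measured 8.38, 8.35 and 8.43 in the healthy arrays, 9.01, 8.95 and 8.93 at week 1, 9.06, 8.41 and 8.64 at week 2 and 8.94, 9.14 and 9.55 at week 3. Its week 1 arrays were level with week 3 replicate 1, and week 2 replicate 2 overlapped the healthy arrays. Its log2 fold change was 0.58 (SE 0.11, adjusted p = 0.108) at week 1, not called, and 0.82 (SE 0.16, adjusted p = 0.0399) at week 3, called. Melk, a maternal embryonic leucine zipper kinase whose transcript is cell-cycle dependent, measured 7.77, 7.05 and 7.54 in the healthy arrays, 8.35, 8.46 and 8.21 at week 1, 8.62, 7.94 and 8.72 at week 2 and 9.44, 9.32 and 9.74 at week 3. Each later group lay wholly above the healthy arrays, and week 3 lay wholly above weeks 1 and 2. The differences from healthy were 0.89 (adjusted p = 0.158) at week 1, 0.98 (adjusted p = 0.251) at week 2 and 2.05 (SE 0.21, adjusted p = 0.00468) at week 3. With Spc24, Melk was 1 of 2 members still called against healthy whichever of the 6 arrays was left out.

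In the spindle assembly checkpoint 2 of 5 genes, Bub1b and Ttk, passed against healthy, and the group's median was 1.55 (0.98 with each gene as the mean of its probe sets). Bub1, the kinase that recruits the checkpoint to the kinetochore, measured 7.59, 6.15 and 6.78 in the healthy arrays, 6.61, 6.45 and 6.82 at week 1, 6.93, 6.50 and 7.68 at week 2 and 8.71, 8.00 and 8.94 at week 3. All week 3 arrays were above all others, with healthy replicate 1 and week 2 replicate 3 nearest. Its difference of 1.71 (SE 0.39, adjusted p = 0.0577) did not pass against healthy, while that against week 1, 1.92 (adjusted p = 0.0256), did. Bub1b (BubR1), an inhibitor of the APC/C, measured 8.40, 7.61 and 7.21 in the healthy arrays, 7.93, 8.54 and 7.84 at week 1, 7.68, 7.96 and 8.10 at week 2 and 9.21, 9.02 and 9.68 at week 3. It rose by 1.56 (SE 0.31, adjusted p = 0.0409). Ttk (Mps1), the kinase that starts the signal, rose by 1.55, and Mad2l1 (Mad2), which captures Cdc20, had 1.08 (adjusted p = 0.0574). Bub3, the WD-repeat protein that carries Bub1 and BubR1, measured 11.92, 12.02 and 11.96 in the healthy arrays, 11.97, 12.12 and 12.02 at week 1, 12.06, 11.95 and 11.91 at week 2 and 11.93, 12.03 and 12.01 at week 3. The 4 groups overlapped throughout, and the difference was 0.03 (SE 0.10, adjusted p = 0.905). Its 4 other probe sets gave 0.13 to 0.71 and none was called.

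Kinetochore genes were among the largest and among the smallest values of the set. Only 3 of 10 passed against healthy, at a median of 1.24, although all 10 were positive and in 9 the week 3 arrays all lay above healthy. Nuf2, of the Ndc80 complex that grips microtubules, measured 8.14, 6.15 and 6.58 in the healthy arrays, 6.91, 8.06 and 7.36 at week 1, 7.10, 6.71 and 6.98 at week 2 and 9.08, 8.70 and 10.23 at week 3. Week 3 lay above every other array, but healthy replicate 1 stood well above the other healthy arrays. The log2 fold change of 2.38 (SE 0.57, adjusted p = 0.0684) was thus near the largest of the set and was not called, whereas against week 2 it was 2.40 (SE 0.37, adjusted p = 0.0326), called. The other Ndc80 subunits were Ndc80 itself, which rose by 1.08, Spc24, which rose by 1.28 (SE 0.15, adjusted p = 0.00788), and Spc25. Spc24 measured 7.20, 7.03 and 7.00 in the healthy arrays, 7.17, 7.29 and 6.97 at week 1, 7.14, 7.15 and 7.19 at week 2 and 8.27, 8.15 and 8.65 at week 3. Its 9 arrays outside week 3 all lay between 6.97 and 7.29, well below the lowest week 3 array.

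Spc25, the partner of Spc24, had probe sets of opposite direction. The chosen one measured 9.59, 8.75 and 8.18 in the healthy arrays, 9.03, 9.27 and 9.18 at week 1, 8.39, 8.76 and 8.83 at week 2 and 9.27, 8.98 and 9.98 at week 3, with week 3 overlapping healthy and week 1. It gave 0.57 (SE 0.39, adjusted p = 0.458) against healthy and 0.75 against week 2. A second probe set gave -0.45 (adjusted p = 0.391) against healthy and -1.07 (SE 0.13, adjusted p = 0.0206) against week 2, called lower. Which of them reports the gene was not tested. Among the outer and inner centromere proteins, Cenpf, a large protein of the corona, measured 8.98, 7.71 and 7.24 in the healthy arrays, 8.63, 8.56 and 8.30 at week 1, 7.68, 7.52 and 7.82 at week 2 and 10.03, 9.72 and 10.77 at week 3. It rose by 2.19 (SE 0.46, adjusted p = 0.0465), and healthy replicate 1 was again the highest of the healthy arrays. Cenph, of the inner plate, measured 7.35, 7.48 and 7.25 in the healthy arrays, 6.92, 7.81 and 7.51 at week 1, 6.90, 7.21 and 6.61 at week 2 and 7.48, 7.59 and 8.11 at week 3. Its week 3 arrays overlapped those of week 1, with a difference from healthy of 0.37 (SE 0.18, adjusted p = 0.301). Cenpa, the centromeric histone H3, had 0.90, the kinetochore kinesin Cenpe 1.46, Cenpk 1.45 and Cenpn 1.20, none of them called, with week 3 wholly above healthy in each.

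Of the 8 mitotic kinesins 3 passed against healthy (median 1.22) and 1 against week 2. Kif11 (Eg5), which pushes the spindle poles apart, measured 8.01, 7.79 and 6.95 in the healthy arrays, 7.65, 7.77 and 7.61 at week 1, 7.48, 7.32 and 8.04 at week 2 and 8.55, 9.06 and 10.38 at week 3. All week 3 arrays were the highest, but they spanned 1.83, the widest range of any member, and the difference of 1.75 (SE 0.48, adjusted p = 0.0973) did not pass. Kif23 (MKLP1), of the centralspindlin complex, measured 8.82, 8.10 and 8.08 in the healthy arrays, 8.54, 8.61 and 8.17 at week 1, 7.98, 8.03 and 8.28 at week 2 and 9.86, 9.43 and 10.21 at week 3. It rose by 1.51 (SE 0.26, adjusted p = 0.0274), and by 1.74 against week 2. Kif20a (MKLP2) rose by 1.31, and Kif2c (MCAK), which takes microtubules apart at centromeres, by 0.89. A second Kif2c probe set gave 2.46 (SE 0.22, adjusted p = 0.00305). Kif20b (MPP1), a kinesin of late cytokinesis, measured 7.71, 7.18 and 6.99 in the healthy arrays, 7.33, 7.53 and 7.54 at week 1, 7.59, 6.64 and 7.36 at week 2 and 8.69, 8.00 and 9.51 at week 3. Its week 3 arrays were all above the others, and the 1.44 (SE 0.37, adjusted p = 0.0825) was not called. Kif22 had 1.14, not called, and the chromokinesin Kif4 had 0.48.

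Kif15, a kinesin that backs up Kif11, measured 6.71, 6.97 and 6.65 in the healthy arrays, 6.96, 6.71 and 6.77 at week 1, 7.05, 6.98 and 7.14 at week 2 and 6.84, 7.18 and 6.94 at week 3. Week 3 overlapped each other group, while the week 2 arrays all lay above the healthy and week 1 arrays. The week 3 difference was 0.21 (SE 0.14, adjusted p = 0.448) against healthy and -0.07 (adjusted p = 0.826) against week 2, the only negative value of the set in that comparison. No second probe set names it alone. All 12 of its values lay below the array medians of 8.12 to 8.13, and whether this probe set detects the gene was not tested.

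Of 3 spindle assembly factors 2 passed, with a median of 2.22, the highest of the 8 groups for the chosen probe sets. With each gene as the mean of its probe sets it was 1.13, below the chromosomal passenger and kinase group (1.43) and cytokinesis (1.28). Tpx2, which activates Aurora A and nucleates microtubules near chromosomes, measured 8.39, 7.54 and 7.19 in the healthy arrays, 8.32, 7.86 and 8.30 at week 1, 8.53, 7.73 and 7.55 at week 2 and 9.78, 9.57 and 10.64 at week 3. It rose by 2.29 (SE 0.37, adjusted p = 0.0223). Nusap1, a microtubule bundling protein, measured 8.55, 8.11 and 7.56 in the healthy arrays, 8.14, 9.22 and 8.47 at week 1, 7.90, 7.20 and 8.01 at week 2 and 10.24, 9.79 and 10.83 at week 3. It rose by 2.22 (SE 0.32, adjusted p = 0.0152) against healthy and by 2.59 (SE 0.31, adjusted p = 0.0206) against week 2, with no overlap in either. Hmmr, a spindle pole protein that is also a hyaluronan receptor, measured 7.74, 7.23 and 7.29 in the healthy arrays, 7.30, 7.16 and 7.30 at week 1, 7.38, 7.26 and 7.14 at week 2 and 8.48, 7.49 and 9.19 at week 3. Week 3 replicate 2 lay within the healthy range, and the difference of 0.97 (SE 0.40, adjusted p = 0.228) was not called. Another Hmmr probe set passed at 1.59 (adjusted p = 0.0385).

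Of the 4 cytokinesis genes 3 passed against healthy (median 1.88) and all 4 against week 2. Racgap1, the GTPase-activating partner of Kif23, measured 8.09, 8.27 and 7.25 in the healthy arrays, 8.22, 8.89 and 8.43 at week 1, 8.00, 8.21 and 7.90 at week 2 and 9.87, 9.55 and 10.26 at week 3. It rose by 2.02 (SE 0.29, adjusted p = 0.015). Prc1, which crosslinks the midzone microtubules, measured 9.02, 8.13 and 8.67 in the healthy arrays, 8.84, 9.70 and 8.89 at week 1, 8.71, 8.29 and 8.75 at week 2 and 10.55, 9.96 and 11.14 at week 3. It rose by 1.94 (SE 0.33, adjusted p = 0.0258), and week 1 replicate 2 was the nearest array from another group. Anln (anillin), of the contractile ring, rose by 1.82. Ect2, the exchange factor that switches on RhoA at the ring, measured 7.43, 6.89 and 6.67 in the healthy arrays, 7.22, 7.05 and 6.83 at week 1, 6.51, 6.66 and 6.72 at week 2 and 7.77, 7.86 and 8.80 at week 3. All week 3 arrays were above all others, and its 1.15 (SE 0.31, adjusted p = 0.0938) missed the threshold against healthy while 1.51 (SE 0.27, adjusted p = 0.0465) passed against week 2.

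**Figure D3:**
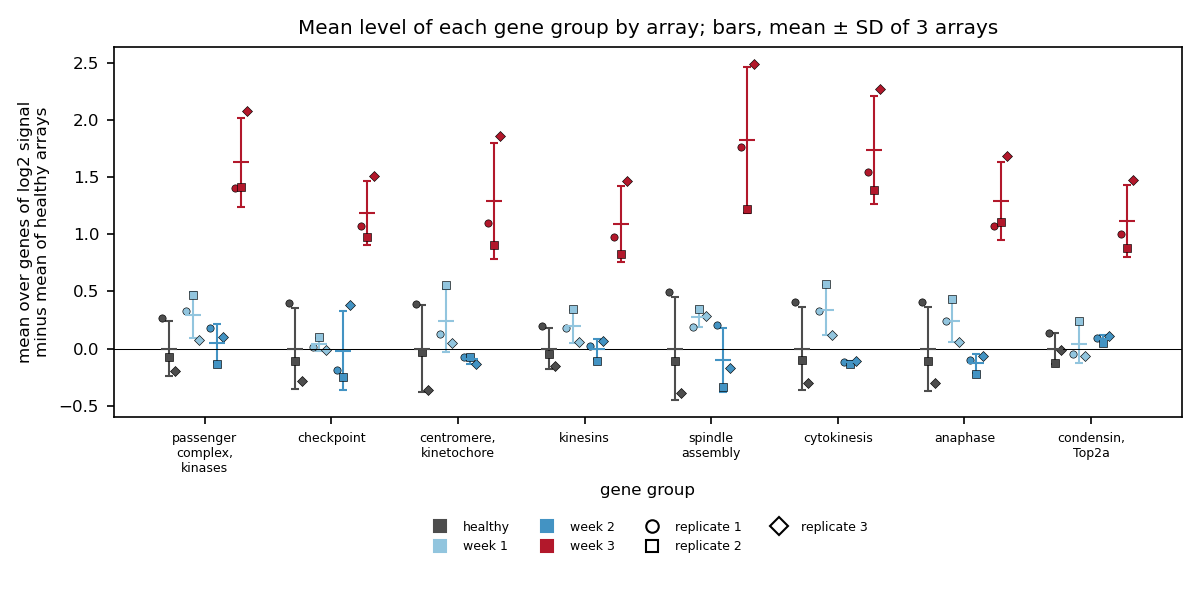
Mean over the genes of each role group (x axis) of log2 signal minus the healthy mean (y axis), 1 point per array with the replicate as its shape; horizontal bars and whiskers are the mean and SD of 3 arrays. In all 8 groups the 3 week 3 points lie above the other 9, and replicate 3 is the highest of them.

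Among the genes of anaphase, 2 of 4 passed against healthy (median 1.05) and 3 of 4 against week 2. Ube2c, the ubiquitin-conjugating enzyme of the APC/C, measured 9.49, 8.56 and 8.33 in the healthy arrays, 9.08, 9.86 and 9.29 at week 1, 9.002, 8.89 and 8.70 at week 2 and 10.86, 10.50 and 11.11 at week 3. It rose by 2.03 (SE 0.31, adjusted p = 0.0176) and, against week 2, by 1.96 (SE 0.17, adjusted p = 0.0124). Pttg1 (securin), which holds separase back, measured 10.41, 10.22 and 9.91 in the healthy arrays, 9.86, 10.60 and 10.14 at week 1, 9.96, 10.04 and 10.35 at week 2 and 11.14, 10.95 and 11.51 at week 3. It rose by 1.03 (SE 0.19, adjusted p = 0.0313), the smallest difference of the 4 genes and yet called. Espl1 (separase), which cuts cohesin, measured 8.38, 8.15 and 7.81 in the healthy arrays, 8.80, 8.11 and 8.11 at week 1, 8.00, 7.94 and 7.92 at week 2 and 8.66, 9.17 and 9.68 at week 3. Week 3 replicate 1 lay below week 1 replicate 1, and the 1.06 (SE 0.27, adjusted p = 0.08) was not called. Cdc20, the activator that the checkpoint restrains, had 1.04 against healthy (adjusted p = 0.0764) and rose by 1.40 against week 2 (adjusted p = 0.0403).

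Condensin and topoisomerase II had unequal differences. Of 6 genes 4 passed against healthy, with a median of 1.09. Top2a, the topoisomerase of dividing cells, measured 8.69, 7.76 and 8.12 in the healthy arrays, 8.21, 8.54 and 8.07 at week 1, 8.02, 8.36 and 8.17 at week 2 and 10.23, 10.06 and 11.23 at week 3. It rose by 2.32 (SE 0.35, adjusted p = 0.0174) against healthy, 2.33 (adjusted p = 0.0228) against week 2 and 2.23 (adjusted p = 0.0311) against week 1. Ncapg, a condensin I subunit, measured 8.48, 8.51 and 8.66 in the healthy arrays, 8.36, 8.90 and 8.42 at week 1, 8.77, 9.21 and 8.85 at week 2 and 9.63, 9.62 and 10.27 at week 3. It rose by 1.29 (SE 0.19, adjusted p = 0.0157), and Ncapd2, of the same complex, by 1.24. Ncaph, the kleisin that closes the condensin I ring, measured 9.78, 9.67 and 9.94 in the healthy arrays, 9.72, 9.91 and 9.81 at week 1, 9.85, 9.70 and 9.78 at week 2 and 10.12, 9.95 and 10.25 at week 3. Its week 3 arrays were the highest of the 12, yet the difference was 0.31 (SE 0.13, adjusted p = 0.228). The SMC subunits shared by both condensins stood between these, Smc2 rising by 0.94 and Smc4 at 0.61 (adjusted p = 0.0545).

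The 3 week 3 arrays were not alike. Replicate 3 was the highest for 42 of the 47 members, against 33.6% of all genes. Replicate 2 was the lowest for 31 (against 31% of all genes) and replicate 1 for the other 16 (against 36.1%). Relative to healthy, the mean of the set was 1.19 in replicate 1, 1.05 in replicate 2 and 1.80 in replicate 3. Replicate 3 led in every role group, from 1.47 in condensin and topoisomerase and in the kinesins to 2.49 in spindle assembly, where replicates 1 and 2 had 1.77 and 1.22. The 5 members it did not lead were Bub3, Kif2c, Kif4, Kif15 and Kif22. Single genes spanned from 0.10 (Bub3) to 1.83 (Kif11) over the 3 arrays. All the same, 37 members had each week 3 array above all other 9, against 5.08% of all genes. The exceptions were Aurka, Bub3, Cenph, Ndc80, Spc25, Kif2c, Kif15, Kif20a, Hmmr and Espl1.

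**Figure D4:**
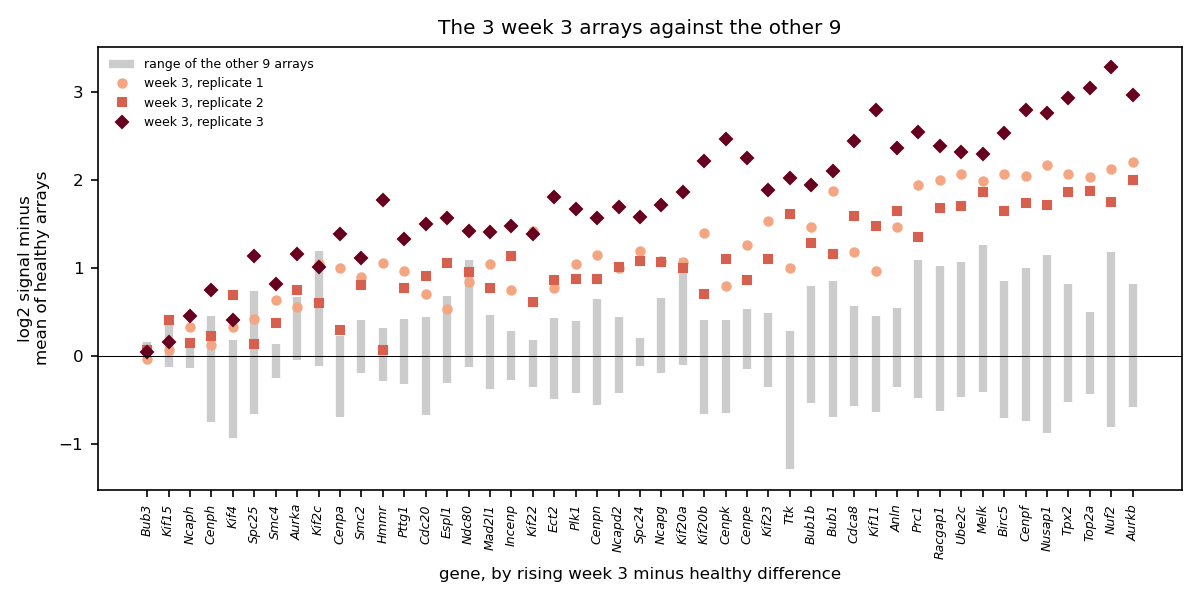
Log2 signal minus the healthy mean (y axis) of each gene (x axis, in order of the week 3 minus healthy difference) on the 3 week 3 arrays (points), with the range of the other 9 arrays as grey bars. The dark replicate 3 points lie highest for 42 genes, and all 3 points clear the grey bar for 37.

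The healthy arrays had a spread of their own. Replicate 1 was the highest of the healthy arrays for 33 members (against 32.3% of all genes) and replicate 3 the lowest for 29 (against 33.2%). The means of the set were 0.32, -0.08 and -0.24 around the healthy mean. At week 1 these means were 0.16, 0.40 and 0.06, and at week 2 0.00, -0.13 and 0.03. The median range over replicates was 0.71 in healthy ECs, 0.47 at week 1, 0.42 at week 2 and 0.80 at week 3.

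Neighbouring genes of division, from lists of the same pathways that leave the members out, moved in part. For the counts that follow, 2.38% of all 18193 genes were called higher at week 3 against healthy. In other kinetochore and centromere genes 5 of 28 rose at week 3 against healthy (median 0.66), led by Cenpi at 1.67 (adjusted p = 0.0256) and Cenpq at 1.41. In other spindle and centrosome genes 8 of 24 rose (median 0.67), led by Cep55 at 2.19 (adjusted p = 0.0422), a protein of the final abscission, and Dlgap5 at 1.87. Among condensin II and chromosome packing genes 1 of 6 rose, Mki67 (Ki-67), by 1.99 (SE 0.38, adjusted p = 0.037), while the list's median was 1.39. Of genes for mitotic entry 4 of 14 rose (median 0.74): the kinase Cdk1 by 2.27 (adjusted p = 0.012), Ccna2 by 2.05, Ccnb2 by 1.71 and Pkmyt1 by 1.02. Foxm1, a transcription factor of G2 and mitosis, had 1.12 (SE 0.36, adjusted p = 0.14) and did not pass.

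Cohesin, the APC/C core and the kinesins of cargo transport had medians near 0. No cohesin gene of 10 was called by limma, none had an unadjusted p below 0.05, and the median was -0.04. The values ran from -0.23 to 0.27, and Smc3 had 0.08 (adjusted p = 0.757). No APC/C subunit or regulator of 15 was called, 2 had an unadjusted p below 0.05, and the median was 0.09. Its largest value was that of the inhibitor Fbxo5 (Emi1), 0.73 (adjusted p = 0.206). Of 20 transport kinesins none rose (1 at an unadjusted p below 0.05) and 2 fell, where 479 of all 18193 genes were called lower. The 2 were Kif26b, by 0.85 (adjusted p = 0.0127), and Kif13b, by 0.58 (adjusted p = 0.0305), and the list's median was -0.13. In tubulins 2 of 9 rose (median 0.35), where 2.38% of all genes were called higher. They were Tubb6, by 1.07 (adjusted p = 0.00672), and Tubb2b, by 0.69.

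**Figure D5:**
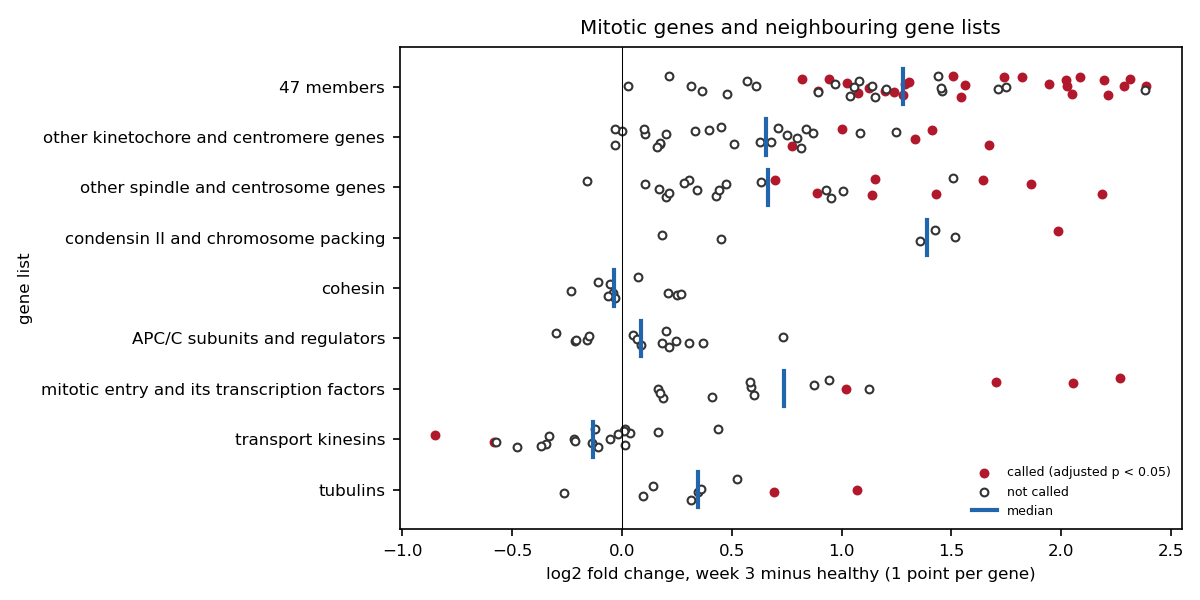
Log2 fold change at week 3 against healthy (x axis) of the 47 genes and of 8 neighbouring gene lists (y axis), 1 point per gene, with called genes filled and the median of each list as a blue line. The 47 genes have their median at 1.28, against -0.04 for cohesin, 0.09 for the APC/C and -0.13 for transport kinesins.

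Many members are read by more than 1 probe set. Together the 47 genes had 111, and 14 had just 1. Of the 64 that were not chosen, 59 had a positive week 3 minus healthy difference, 18 were called higher and none lower. The 5 of the opposite sign belonged to Kif20b, Kif23, Pttg1, Spc25 and Top2a, between -0.03 and -0.45, none called. Cdc20, Cenpk, Hmmr, Kif11, Kif20b and Kif22 were not called by the chosen probe set and were called by another.

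Array medians of log2 signal ran from 8.12 to 8.13. The sorted cells kept their endothelial label at every time, with none of 14 endothelial markers called at week 3 against healthy by limma (3 at an unadjusted p below 0.05) and a median of 0.00. Markers of other cells were also present. Over the 10 leukocyte markers the mean relative to healthy was -0.28 to 0.21 in healthy arrays. It was -0.81 to -0.19 at week 1, -0.73 to -0.20 at week 2 and 0.19 to 0.24 at week 3. Of these markers, 1 rose at week 3 against healthy and 2 against week 2, where 2.38% and 1.35% of all genes were called higher. Against week 2, 8 were higher at an unadjusted p below 0.05, as were 1566 of all 18193 genes, and the list's median was 0.81. The 3 week 3 arrays differed by less in the leukocyte markers than in the mitotic genes. Healthy replicates 1 and 3 were the highest and lowest for both, and week 1 replicate 2 was the highest for both. Week 2 replicate 2 was the highest for the leukocyte markers and the lowest for the mitotic genes. Week 3 replicate 3 was the lowest for the leukocyte markers and the highest for the mitotic genes. Of 11 macrophage and monocyte markers 2 rose and 1 fell at week 3 against healthy, as did 433 and 479 of all 18193 genes. Relative to healthy, the week 3 array means were 0.15 to 0.42 for these 11 markers and 0.31 to 0.51 for 5 neutrophil markers. None of 5 neutrophil, 5 erythroid, 7 platelet or 4 mesothelial markers was called by limma at week 3 against healthy (2, 1, 1 and 0 at an unadjusted p below 0.05). At week 3 against week 1, 3 platelet markers (median of the list 0.91) and 1 neutrophil marker rose, as did 118 of all 18193 genes. At week 1 against healthy 1 platelet marker fell, as did 7 of all genes. Fibroblast (6 of 10), epithelial (5 of 12) and mural cell (2 of 10) markers fell at week 3 against healthy, as did 479 of all 18193 genes. Over each of these lists the mean of every week 1 and week 2 array was below the healthy mean as well. These means ran from -0.69 to -1.22 for fibroblasts and -0.72 to -0.90 for mural cells. The part of these cells in the mitotic signal was not tested.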

How the data were processed

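Raw arrays were normalized by the authors with robust multiarray averaging in Chipster 3.8.0, after amplification of small RNA amounts from sorted cells, and the deposited values are log2 signals of 45101 probe sets on 12 arrays. This scaling gives every array nearly the same distribution, so a shift of all genes cannot be seen. Array number, 3 per group, limits the precision.

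After 64 control probe sets were left out, 45037 were fitted with limma 3.58.1 (R 4.3.3), each comparison as a 2-group empirical Bayes fit on its 6 arrays, as in the study's methods, with Benjamini-Hochberg adjustment over all of them and a threshold of 0.05. The fit was tested on simulated data. Of the probe sets, 34945 named 1 symbol, 932 several and 9160 none in the platform annotation, and symbols came only from the first. Members, gene lists (8 of division genes, 10 of cell type markers) and tests were chosen with earlier results of these data known. Array values are given for the 2 largest and the smallest week 3 minus healthy differences of each role group and for genes with disagreeing probe sets, and further members are named where their course stood out. From each division list except cohesin the leading genes are named, with Mki67, Cdk1 and Foxm1. For cohesin Smc3 is named, which was not its largest difference. Hjurp, Ccnb1, Klc2, Tuba1b and Tuba1c had no probe set of their own symbol alone. Promoter sequences were those of RefSeq, and a gene with several starts counted as holding a run if any of them did. Figures used matplotlib 3.10.9 and tables pandas 2.3.3.

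Alternatives were 1 fit over all groups, a replicate block, renormalization, median centring, a low-signal filter, other choices of probe set, other variance models and leaving out each array.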

Additional observations from a re-analysis of the deposited data

Results flagged for a closer look

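The change against healthy ECs differed between week 3 and week 2 for 20 of the 47 mitotic genes. The test was the week 3 against week 2 comparison itself (limma, adjusted over all probe sets), in which the healthy arrays cancel. All 20 were higher at week 3, where 1.35% of all genes were called higher. No member was called without week 2 replicate 1 or week 2 replicate 3. Racgap1 had a difference of 1.86 (SE 0.19, adjusted p = 0.0165) and Ube2c that of 1.96 (SE 0.17, adjusted p = 0.0124). No outlying array was tested for, as groups of 3 are too small.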

How the results depend on the processing

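The direction of the set at week 3 was the same under all alternatives run. The median week 3 difference kept between 1.02 and 1.40 against healthy, 1.06 and 1.48 against week 2 and 0.88 and 1.32 against week 1 when single arrays were left out, and that of week 1 against healthy between 0.03 and 0.33. The median of week 2 against healthy, -0.02, ran from -0.14 to 0.11 (without healthy replicate 1), and was 0.02 both without the x and s probe sets and with the mean of probe sets. The number of members called was less steady. With single arrays left out it ran from 3 to 22 against healthy, 0 to 15 against week 2 and 0 to 1 against week 1, where the test has fewer samples. In 1 fit over all groups, 38, 33 and 26 members were called against healthy, week 2 and week 1, in place of 26, 20 and 10. The low-signal filter gave 34, 30 and 18, the mean of all probe sets 34, 30 and 17, and a trended, robust variance 34, 29 and 23. Same-numbered arrays deviated with correlations of -0.10 to 0.06 over 18 pairs of arrays, so the numbers were not taken to pair them, and the replicate block, which leaves fewer degrees of freedom, called 12, 0 and 0 members. Of the 26 called against healthy, 10 were called under every alternative that kept all arrays, and 2 (Melk and Spc24) with any 1 array left out. Among single genes, for which week 3 against healthy and against week 2 were rerun, signs turned at week 3 against week 2 for Bub3, which ran from -0.016 (without week 2 replicate 3) to 0.059 with single arrays left out, Kif15, which ran from -0.166 to 0.004 (without week 3 replicate 1), and Spc25 as the mean of its probe sets (-0.16). The cause of these changes was not tested. Week 3 replicate 3 was highest for 42 members under renormalization and median centring, and for 45 with the mean of probe sets.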
